A study of Mus musculus with 15 samples.

Results

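Mitf, its relatives Tfec, Tfeb and Tfe3, the folliculin gene Flcn, and 5 genes known from pigment cells or osteoclasts (Gpnmb, Slc45a2, Slc24a5, Myo5a and Acp5) were followed in microglia of an amyloid mouse model. These 10 genes, of 36528 gene IDs measured, were listed by name because of how they differed between PS2APP and non-Tg libraries in the same data, so their genotype values are a description: folds and SEs are given without p-values, and whether a gene was among those called over all genes is stated as part of that description and supports nothing. Each of the 15 RNA-seq libraries came from cortical cells sorted on the Cx3cr1::GFP reporter, which marks microglia and related macrophages and which both genotypes carried. PS2APP mice express human transgenes for mutant presenilin 2 and mutant amyloid precursor protein and form amyloid plaques; they gave 9 libraries, 4 at 14 months and 5 at 15 months. Non-Tg mice, which lack the transgenes, gave 6 libraries, 2 at 14 months and 4 at 15 months. The promoters of the transgenes are not given in the labels used here, and nothing in the labels says that each library is a separate mouse, so p-values measure the spread between these libraries.

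MITF, TFEB, TFE3 and TFEC are basic helix-loop-helix leucine zipper proteins that bind DNA as dimers within the family. MITF directs the pigment program of melanocytes and acts with TFE3 in osteoclasts, while TFEB and TFE3 are best known for lysosome and autophagy genes. Folliculin, with its FNIP partners, acts on the Rag GTPases, through which mTORC1 keeps the family members phosphorylated and in the cytoplasm. RNA levels do not report on that step.

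Depth ran between 3664742 and 8455237 gene-assigned reads per library, with a median of 5867848. As checks of the labels, App averaged 209 ± 78.1 CPM (counts scaled to the same effective library size) in PS2APP and 169 ± 27.3 CPM in non-Tg libraries, and Psen2 averaged 13.2 ± 5.15 CPM in PS2APP and 9.10 ± 5.82 CPM in non-Tg libraries (SD, n = 9 and 6). Cx3cr1, whose locus drives the reporter, averaged 2100 ± 319 CPM in PS2APP and 2571 ± 199 CPM in non-Tg libraries (SD, n = 9 and 6). None of these was called, and the human transgenes are not separated from the mouse genes in the counts. Microglia markers summed to between 24732 and 36248 CPM in PS2APP and between 31328 and 41445 CPM in non-Tg libraries. Immediate early genes stood apart in 4 libraries, PS2APP samples 1 and 4 and non-Tg samples 9 and 13. Neuron markers summed to between 77.7 and 274 CPM in PS2APP libraries and between 287 and 587 CPM in non-Tg libraries, with no overlap. Border macrophage markers summed to between 61.3 and 242 CPM in PS2APP and between 36.7 and 222 CPM in non-Tg libraries, and oligodendrocyte markers to between 121 and 265 CPM in PS2APP and between 187 and 772 CPM in non-Tg libraries. Their part in the results was not tested. For some genes a fit with a neuron marker score as a covariate is given. Since the neuron sums did not overlap between genotypes, that fit cannot separate neuron content from genotype, and nothing is read from it. In bulk libraries, fewer cells of a type and less RNA per cell cannot be told apart.

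To show where a family motif lies near these genes, start-site windows were searched for the M-box TCATGTG, a motif bound by MITF in pigment genes. The windows are from RefSeq on GRCm38.p6, 300 bases long, with 250 before the start and 50 from it on. Of 16 windows of 9 of the genes, 2 held it on either strand, 1 of Slc24a5 and 1 of Acp5, while 3.77% of all 32851 windows did. Trpm1, a pigment-cell channel gene described further on, also had it in a window. It lay 13 to 7 bases before the start in Slc24a5, 90 to 84 in Acp5 and 142 to 136 in Trpm1. The motif is in capitals, and CACATGA is its reading on the opposite strand.
Slc24a5, chr2:125067877-125068176, plus strand: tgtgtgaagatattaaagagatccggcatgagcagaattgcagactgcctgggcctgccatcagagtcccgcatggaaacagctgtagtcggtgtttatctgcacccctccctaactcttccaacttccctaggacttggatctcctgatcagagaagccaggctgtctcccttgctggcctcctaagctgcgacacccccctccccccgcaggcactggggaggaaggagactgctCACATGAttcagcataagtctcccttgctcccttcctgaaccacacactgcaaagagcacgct
Acp5, chr9:22130549-22130848, minus strand: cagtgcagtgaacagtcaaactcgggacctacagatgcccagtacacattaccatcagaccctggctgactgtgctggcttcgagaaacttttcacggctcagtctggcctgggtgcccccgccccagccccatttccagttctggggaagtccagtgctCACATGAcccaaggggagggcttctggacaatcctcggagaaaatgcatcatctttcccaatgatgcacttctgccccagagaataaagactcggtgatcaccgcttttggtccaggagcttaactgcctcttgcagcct
Trpm1, chr7:64153585-64153884, plus strand: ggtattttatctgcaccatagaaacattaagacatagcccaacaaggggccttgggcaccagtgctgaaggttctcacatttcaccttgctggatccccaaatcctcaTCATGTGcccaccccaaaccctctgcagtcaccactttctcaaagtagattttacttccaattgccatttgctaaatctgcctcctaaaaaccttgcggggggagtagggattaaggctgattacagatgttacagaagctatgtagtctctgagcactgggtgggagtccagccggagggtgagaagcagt
The E-box CACGTG, which the family also binds, was in 0 of the 16 windows, in the other window of Trpm1 (229 to 224 bases before that start) and in 7.15% of all windows, and the longer CLEAR element, which holds that E-box, was in 0 of the 16 and in 0.326% of all. A match is a description of these letters and not a site of binding. No window of Slc45a2 was used here.

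Of the 10 genes, 8 passed the filter on low counts, and Tfec and Acp5 did not. Gpnmb, Slc45a2 and Myo5a, 3 of the 8, were called higher in PS2APP (edgeR quasi-likelihood, adjusted p under 0.05 over all 13994 genes tested), and 0 were called lower. Over all genes 0.958% were called higher and 0.222% lower. The genes were chosen on this contrast, and Gpnmb and Slc45a2 could pass the filter only through their PS2APP libraries, so nothing is read from that count. The fold change was above 0 for 6 of the 8, beside 47.3% of all genes. PS2APP and non-Tg ranges were apart for 2 of the 8, Gpnmb and Myo5a, beside 0.572% of all genes apart and higher and 0.636% apart in either direction.

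**Figure D1:**
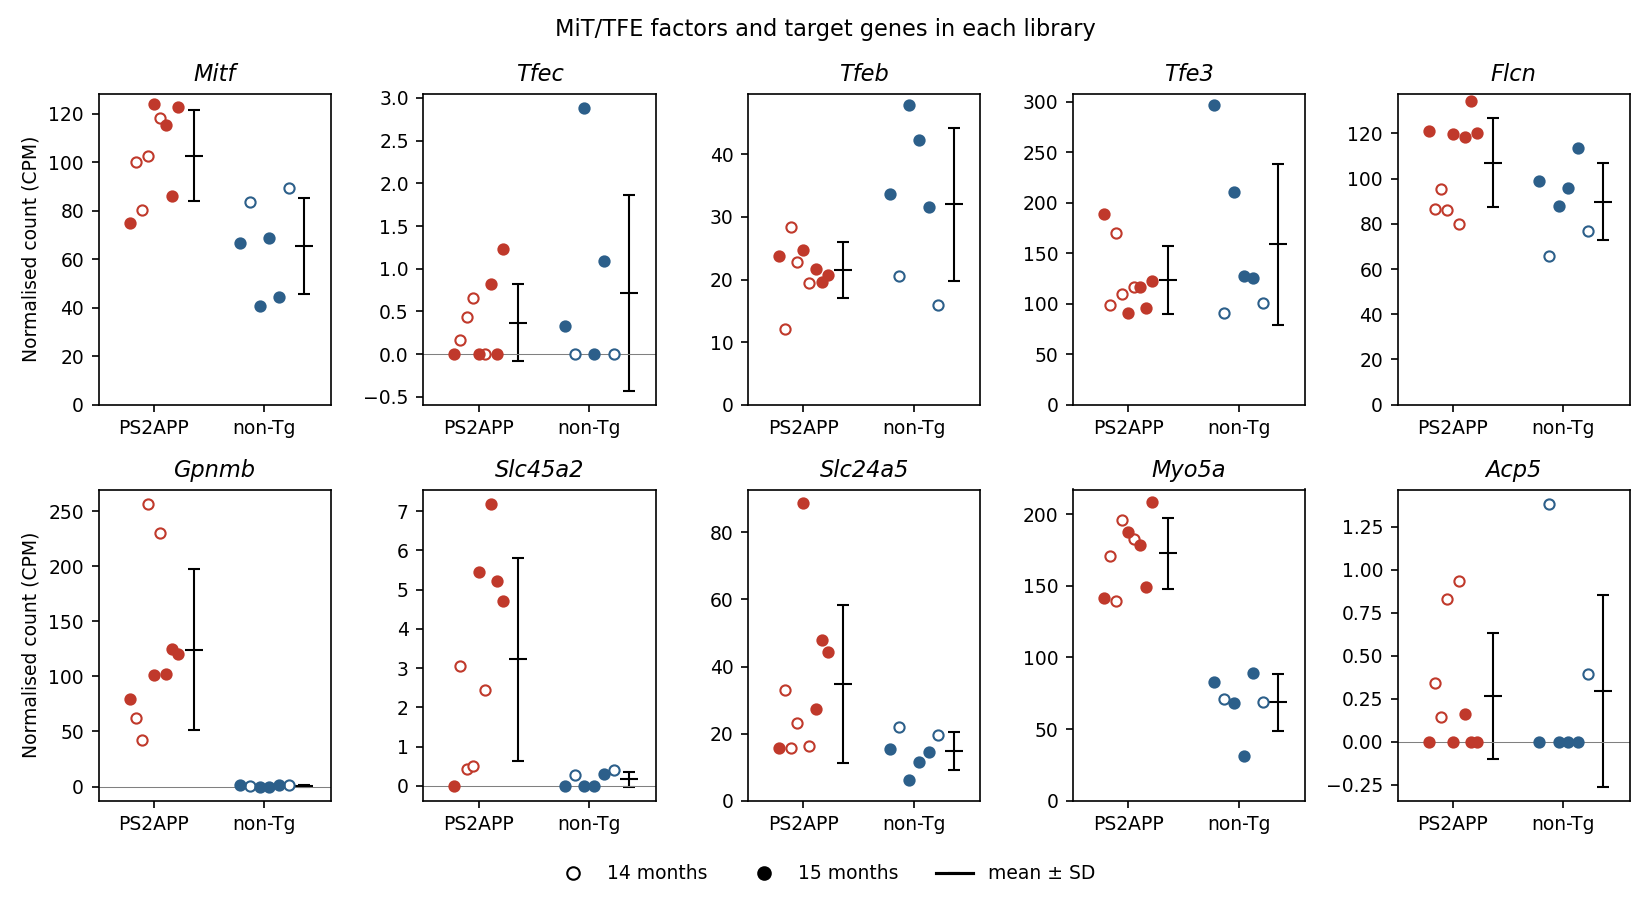
CPM of each of the 10 genes in every library, PS2APP left of non-Tg, with open circles for 14 months, filled circles for 15 months and the mean ± SD (n = 9 and 6) beside the points; an SD bar may pass below 0, which CPM cannot. Gpnmb and Myo5a show no overlap between genotypes, and Tfec and Acp5 lie near 0 in both.

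Mitf, the factor of the pigment program, had a lowest, median and highest level of 74.9, 103 and 124 CPM in PS2APP and 40.8, 67.8 and 89.4 CPM in non-Tg libraries. The ranges overlapped, with 6 of 9 PS2APP libraries above every non-Tg library. The log2 fold change was 0.65 ± 0.19 (SE), or 1.57-fold, and it was not called, although DESeq2 and edgeR without the count filter called it. With the neuron marker score as a covariate it was 0.37 ± 0.30, also without a call. At 14 months Mitf averaged 100 ± 15.5 CPM in PS2APP and 86.5 ± 4.04 CPM in non-Tg libraries (SD, n = 4 and 2). At 15 months it averaged 105 ± 22.7 CPM in PS2APP and 55.2 ± 14.6 CPM in non-Tg libraries (SD, n = 5 and 4).

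Tfeb, the lysosomal regulator, ran at 12.1, 21.7 and 28.4 CPM (lowest, median, highest) in PS2APP and 16, 32.6 and 47.9 CPM in non-Tg libraries. All 9 PS2APP libraries lay below the non-Tg median, and the log2 fold change was -0.46 ± 0.24 without a call. It was 0.23 ± 0.37 at 14 months alone (n = 4 and 2) and 0.0069 ± 0.37 with the neuron score, each within its SE of 0. Tfe3, which shares many targets with TFEB, ran at 90.5, 116 and 189 CPM in PS2APP and 90.3, 126 and 297 CPM in non-Tg libraries. The ranges overlapped, with non-Tg samples 2 and 9 (297 and 211 CPM) above every PS2APP library. Samples 1 and 4, high in immediate early genes, were the highest PS2APP libraries at 189 and 170 CPM. Of the non-Tg libraries high in those genes, sample 9 was at 211 and sample 13 at 101 CPM. The log2 fold change of -0.28 ± 0.24 was not called, was -0.06 without non-Tg sample 2 and was 0.41 at 14 months alone. Tfec, the macrophage-lineage relative, had 19 reads over the 9 PS2APP libraries and 32 over the 6 non-Tg libraries, of which 23 were in non-Tg sample 9. No fold is given at that depth.

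Per gene length, Tfe3 made up most of the family's RNA on average in both genotypes. Mitf's share of the summed RPKM (read number relative to gene length and depth) of the 4 factors was 18.3, 34.3 and 40.4% (lowest, median, highest) in PS2APP and 8.86, 17.6 and 32.6% in non-Tg libraries, with overlap. The lowest PS2APP shares, 18.3 and 20.4%, were in samples 1 and 4, high in immediate early genes. Non-Tg samples 9 and 13, also high in them, held the lowest and the highest non-Tg share. Tfe3 held 56.9 ± 7.72% in PS2APP and 64.2 ± 9.41% in non-Tg libraries, and Tfeb held 11.1 ± 1.90% in PS2APP and 15.2 ± 4.76% in non-Tg libraries (SD, n = 9 and 6). The sum of the 4 was 13.9 ± 1.99 RPKM in PS2APP and 15.4 ± 5.32 RPKM in non-Tg libraries, a difference smaller than the non-Tg spread. At 14 months Mitf's share was 31.2 ± 7.41% in PS2APP and 32.4 ± 0.264% in non-Tg libraries (SD, n = 4 and 2). At 15 months it was 32.0 ± 8.25% in PS2APP and 13.8 ± 4.95% in non-Tg libraries (SD, n = 5 and 4). Age was not tested for these shares.

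**Figure D2:**
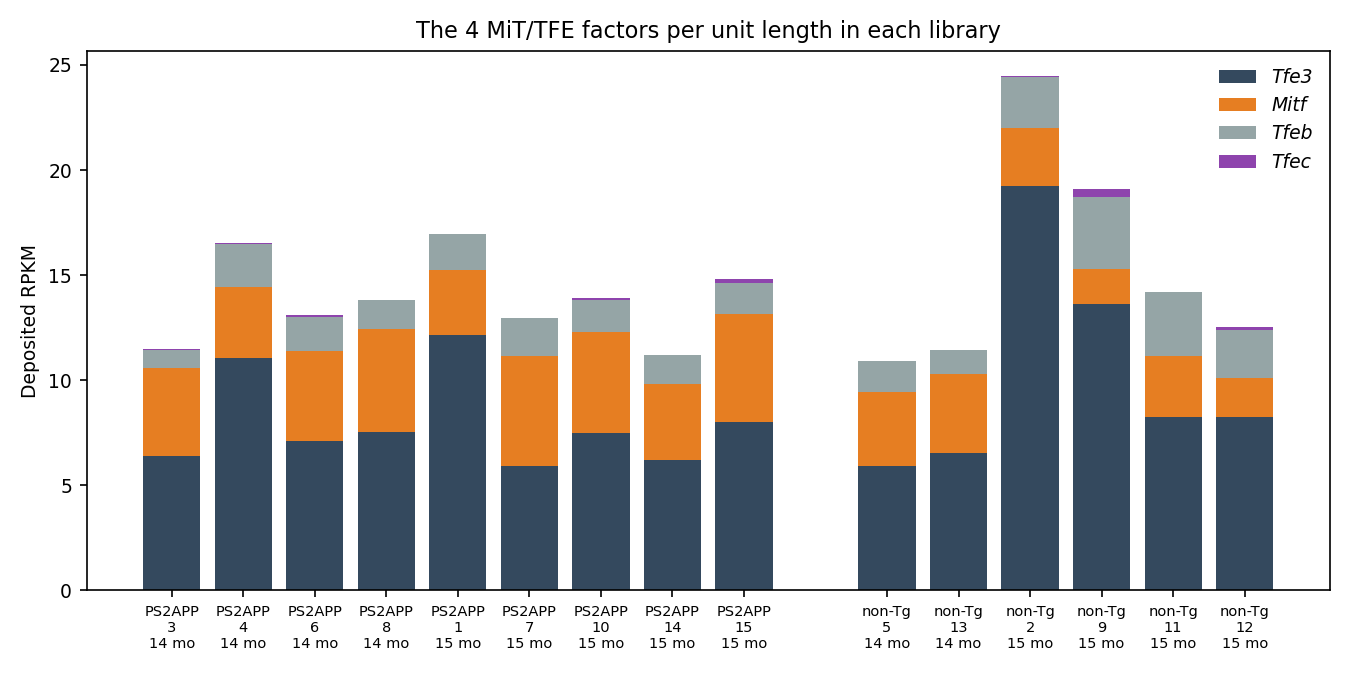
Deposited RPKM of Tfe3, Mitf, Tfeb and Tfec stacked in 1 bar for each library, PS2APP left of non-Tg and by age inside each genotype. Tfe3 is the largest block on average in both genotypes, and Mitf makes up between 18.3 and 40.4% of a bar in PS2APP and between 8.86 and 32.6% in non-Tg libraries.

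Flcn, the upstream regulator of the family's location, ran at 80.1, 118 and 134 CPM (lowest, median, highest) in PS2APP and 65.7, 91.9 and 114 CPM in non-Tg libraries. The log2 fold change was 0.30 ± 0.13, with overlap and no call. In PS2APP it was between 118 and 134 CPM at 15 months and between 80.1 and 95.4 CPM at 14 months, and in non-Tg it was between 87.8 and 114 CPM at 15 months and between 65.7 and 77.0 CPM at 14 months. Ages were thus apart in both genotypes, which held for 0.193% of all genes with the older libraries higher and for 0.293% in either direction. The age log2 fold change was 0.49 ± 0.13 with an edgeR adjusted p of 0.539, while DESeq2 gave an adjusted p of 0.0480.

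Gpnmb encodes a transmembrane glycoprotein of melanosomes and of lysosomes in macrophages and osteoclasts. It ran at 41.9, 102 and 257 CPM (lowest, median, highest) in PS2APP and 0, 0.836 and 1.64 CPM in non-Tg libraries. The ranges were far apart, with 5979 reads in PS2APP and 31 in non-Tg libraries, and 2 non-Tg libraries had none. The log2 fold change was 7.11 ± 0.57. Within PS2APP, samples 6 and 8 were highest at 257 and 231 CPM, and sample 4 was lowest.

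Slc45a2, a melanosomal transporter gene that governs pigment formation, was low throughout, at 0, 3.06 and 7.19 CPM (lowest, median, highest) in PS2APP and 0, 0.139 and 0.396 CPM in non-Tg libraries. Of the PS2APP libraries 8 of 9 were above every non-Tg library, and sample 1 was at 0. The reads came to 149 in PS2APP and 6 in non-Tg libraries, which scaled to depth is 18.8 times as many, with 8.42 to 52.0 as the 95% interval for counting error alone. The log2 fold change was 4.02 ± 0.99. The call was lost without any one of non-Tg samples 2, 5, 9, 11 or 12, with log2 values between 3.67 and 4.21, and the value was 4.80 without non-Tg sample 13. It was also lost within each age, at 2.15 for 14 months and 5.47 for 15 months, with the neuron score (3.34), with limma-voom (3.31) and with limma on log2(RPKM + 1).

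Slc24a5, the cation exchanger gene of melanosomes, ran at 15.7, 27.3 and 88.7 CPM (lowest, median, highest) in PS2APP and 6.02, 15.1 and 21.9 CPM in non-Tg libraries. The ranges overlapped, and the log2 fold change of 1.18 ± 0.38 was not called by edgeR over the filtered genes but was by DESeq2. At 14 months it averaged 22.1 ± 8.03 CPM in PS2APP and 20.7 ± 1.66 CPM in non-Tg libraries (SD, n = 4 and 2). At 15 months it averaged 44.8 ± 27.8 CPM in PS2APP and 11.9 ± 4.28 CPM in non-Tg libraries (SD, n = 5 and 4). Its exons share 921 of 2330 bases (39.5%) with Myef2 on the opposite strand, and since strandedness is not given, reads of the 2 genes cannot be told apart there. PS2APP sample 7 was highest for both, at 88.7 CPM for Slc24a5 and 139 CPM for Myef2.

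Myo5a, the myosin that carries melanosomes and other vesicles along actin, ran at 139, 178 and 208 CPM (lowest, median, highest) in PS2APP and 31.5, 70.2 and 88.8 CPM in non-Tg libraries. The ranges were apart, and the log2 fold change was 1.33 ± 0.19, or 2.51-fold. The value was 1.33 at 14 months alone, where the call was lost with fewer libraries, and 1.08 ± 0.30 without a call when a neuron marker score was a covariate. Acp5, the tartrate-resistant acid phosphatase of osteoclasts, had 14 reads in PS2APP and 8 in non-Tg libraries, with 4 libraries of each genotype at 0, and no fold is given. The libraries at 0 were all of 15 months. At 14 months Acp5 had 13 reads in PS2APP and 8 in non-Tg libraries, and at 15 months 1 and 0. With so few reads, age was not tested for it.

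**Figure D3:**
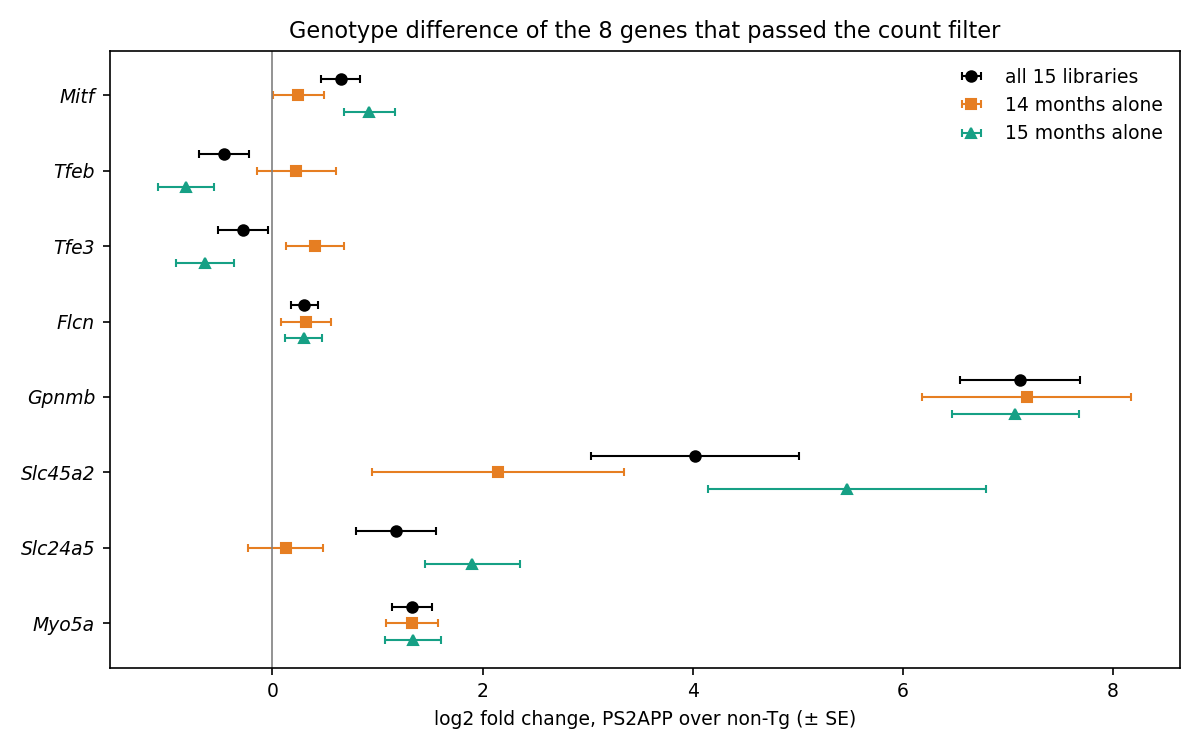
Log2 fold change of PS2APP over non-Tg with its SE for the 8 genes that passed the count filter, over all 15 libraries and within each age. Gpnmb and Myo5a have like values at both ages. Tfeb and Tfe3 lie above 0 at 14 months, on 4 PS2APP and 2 non-Tg libraries, and below 0 at 15 months. At 14 months the SE of Tfeb spans 0.

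Ranked per gene length, Gpnmb led in PS2APP libraries at 8.72 ± 5.09 RPKM and was eighth of 10 in non-Tg libraries at 0.0558 ± 0.0547 RPKM. The PS2APP order went on with Tfe3 at 7.99 ± 2.18, Flcn at 7.39 ± 1.36, Slc24a5 at 4.75 ± 3.25, Mitf at 4.28 ± 0.789, Myo5a at 3.34 ± 0.480, Tfeb at 1.54 ± 0.325 and Slc45a2 at 0.186 ± 0.148 RPKM (SD, n = 9). Only the neighbours Myo5a and Tfeb, and Tfeb and Slc45a2, were separated by more than their SDs. In non-Tg libraries Tfe3 led at 10.3 ± 5.15 RPKM, before Flcn at 6.23 ± 1.19 and Mitf at 2.74 ± 0.830 RPKM (SD, n = 6). Tfec and Acp5 stayed under 0.1 RPKM on average in both genotypes.

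Age and its interplay with genotype were not used to choose the genes and were tested over all genes. Neither gave a call with edgeR, for 0% of 13994 genes in each test. An unadjusted p under 0.05 was reached by 1112 genes (7.95%) for age and 1038 genes (7.42%) for the interaction, and DESeq2 called 12 and 6. Age fold changes were above 0 for 5 of the 8 genes, beside 53.0% of all genes. Apart from Flcn, the age log2 fold changes lay between -0.47 ± 0.42 for Gpnmb and 0.73 ± 0.90 for Slc45a2. The interaction, the PS2APP difference at 15 months minus that at 14 months, was 1.81 ± 0.65 for Slc24a5, -1.0 ± 0.45 for Tfeb, -1.0 ± 0.44 for Tfe3 and 0.71 ± 0.35 for Mitf on the log2 scale. Their edgeR adjusted p-values were 0.641, 0.666, 0.666 and 0.669. Slc45a2, with few reads, had the largest value of the 8 genes at 3.36 ± 1.87 (edgeR adjusted p = 0.699). A difference between ages was thus not shown. Gpnmb (-0.07 ± 1.43), Myo5a (0.06 ± 0.38) and Flcn (0.02 ± 0.27) had values within their SE of 0.

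Whether the genes moved with Mitf inside PS2APP was also independent of the choice, and 7 relations over 9 libraries were tested on log2 CPM. Myo5a rose with Mitf: Pearson's r was 0.91 (exact permutation p = 0.00177, adjusted p = 0.0124) and Spearman's rho 0.85 (exact permutation p = 0.00607, adjusted p = 0.0425). Without PS2APP samples 1 and 4, the farthest from the Mitf median and also the PS2APP libraries high in immediate early genes, r was 0.78 over 7 libraries (exact permutation p = 0.0369, adjusted p = 0.258), so the call rests on them. How many of all genes follow Mitf this closely was not counted, so the relation is not shown to be particular to Myo5a. Slc45a2 had an r of 0.71 (exact permutation p = 0.0332, adjusted p = 0.116), falling to 0.19 without samples 1 and 4. Its reads were 0, 3 and 3 in PS2APP samples 1, 4 and 6, so its low end lay near the floor. Slc24a5 had an r of 0.50 (exact permutation p = 0.172, adjusted p = 0.266) and 0.07 without samples 1 and 4. Flcn had an r of -0.12 and -0.07 without them. Gpnmb had an r of 0.48 (exact permutation p = 0.190, adjusted p = 0.266) and 0.06 without samples 1 and 4. Tfe3 had an r of -0.63 and turned to 0.41 without them, and Tfeb had -0.18 and turned to 0.39. Each age holds too few PS2APP libraries, 4 and 5, for a correlation of its own.

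**Figure D4:**
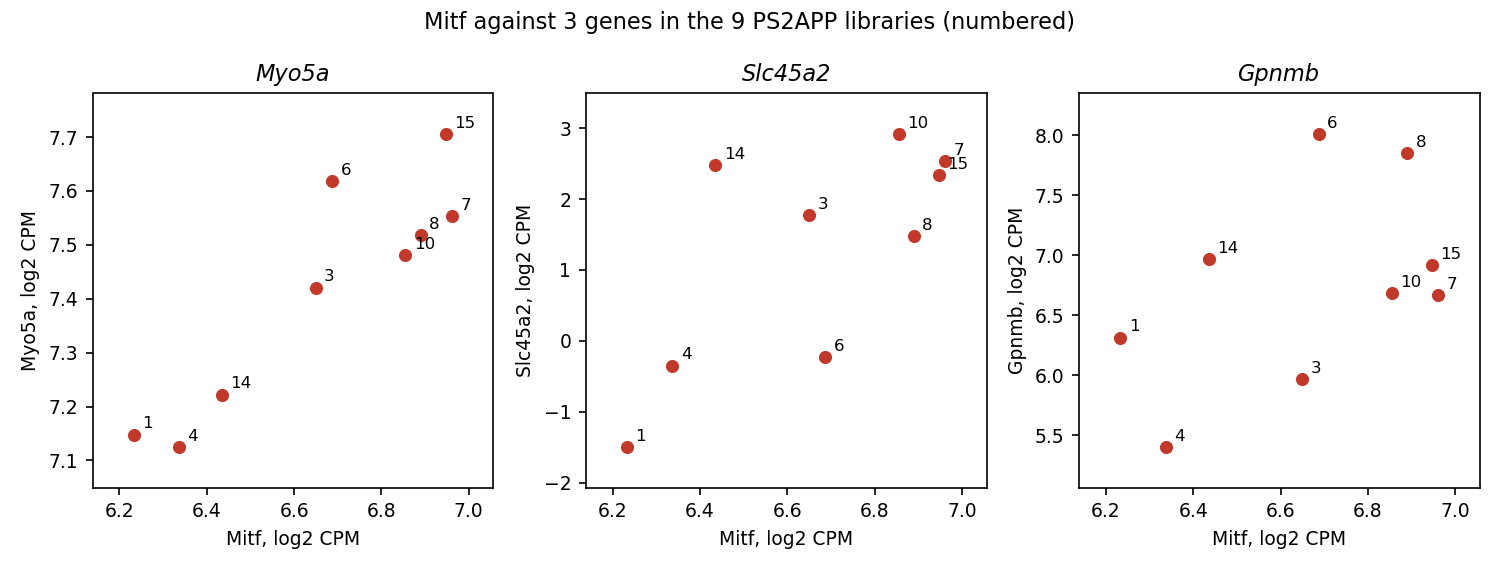
Log2 CPM of Myo5a, Slc45a2 and Gpnmb against log2 CPM of Mitf, with 1 numbered point for each of the 9 PS2APP libraries. Myo5a follows Mitf (r = 0.91), and samples 1 and 4 form the low end.

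The profiles nearest to Mitf over all 15 libraries, by root mean square distance of standardized log2 CPM among 11577 genes, were Dipk2a (0.354), Pdp1 (0.459), Psat1 (0.462), Adam9 (0.463) and Atp6v1a (0.489). The median distance to Mitf was 1.37. Nearest to Gpnmb were Hpse (0.203), Itgax (0.234), Cd200r4 (0.234), Ldlrad3 (0.257) and Acaca (0.278). Hpse encodes heparanase and Itgax the integrin CD11c. These are descriptions of likeness, and genotype is part of the profiles compared.

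Other genes of the same pathways came from lists chosen by function. Of 18 pigment synthesis and melanosome matrix genes 7 were tested, and 3 were called higher and 0 lower, beside 0.958% and 0.222% of all genes. The 3 were Gpnmb, Slc45a2 and Trpm1. Gpnmb, Slc45a2 and Slc24a5 were chosen on this contrast, so neither the count nor a median over the 7 is read. Of the 4 others, Cdk2, Atp7a and Slc7a11 had log2 fold changes of 0.27 ± 0.38, 0.08 ± 0.17 and -0.01 ± 0.42. Trpm1, a cation channel gene of melanocytes and retinal bipolar cells, averaged 4.28 ± 2.40 CPM in PS2APP and 0.0698 ± 0.114 CPM in non-Tg libraries (SD, n = 9 and 6). Every PS2APP library was above every non-Tg library, and its reads came to 206 in PS2APP and 3 in non-Tg libraries, which scaled to depth is 51.9 times as many (95% interval for counting error alone, 17.5 to 254). Its log2 fold change was 5.37 ± 0.80 and 6.13 without non-Tg sample 13. With so few non-Tg reads it could pass the count filter only through PS2APP libraries, so its call supports nothing, and the call was lost at 14 months alone, with the neuron score and on log2(RPKM + 1).

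Defining melanocyte genes were at or near 0. Tyrp1 had 0 reads in both genotypes, Dct had 1 in PS2APP and 0 in non-Tg libraries, Tyr had 3 in PS2APP and 4 in non-Tg libraries, and Mlana had 2 in PS2APP and 7 in non-Tg libraries. Pmel, the fibril protein of melanosomes, had 44 reads in PS2APP and 49 in non-Tg libraries. Among the other markers, Kit had 36 reads in PS2APP and 7 in non-Tg libraries, Sox10 had 21 and 17, and Pax3 had 1 and 0. Of 8 melanocyte markers 0 passed the count filter, and their sum lay between 0.205 and 4.31 CPM in PS2APP and between 0.654 and 3.56 CPM in non-Tg libraries.

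Of 22 melanosome biogenesis and transport genes 20 were tested, and Myo5a alone, chosen on this contrast, was called. Of the 20, 10 were above 0, beside 47.3% of all genes, and their median was 0.01, beside -0.02 over all genes. Tpcn2, a lysosome and melanosome channel gene, had a log2 fold change of 0.59 ± 0.30. Rab27a, whose product links melanosomes to Myo5a through melanophilin, had a log2 fold change of 0.31 ± 0.18, Lyst had 0.26 ± 0.15, and Bloc1s6, a subunit gene of the BLOC-1 complex, had -0.42 ± 0.26. Of 15 osteoclast genes 9 were tested and 0 were called, beside 1.18% of all genes, with 6 of 9 above 0 and a median of 0.12. Car2, the carbonic anhydrase that supplies protons in osteoclasts, averaged 1.86 ± 1.21 CPM in PS2APP and 5.15 ± 4.68 CPM in non-Tg libraries (SD, n = 9 and 6), a log2 fold change of -1.53 ± 0.63 that was not called. Atp6v0d2, a proton pump subunit gene of osteoclasts and macrophages, averaged 11.6 ± 9.15 CPM in PS2APP and 0.917 ± 1.79 CPM in non-Tg libraries (SD, n = 9 and 6). Its log2 fold change was 3.45 ± 0.89 without a call, and 6.04 without non-Tg sample 9, which held 36 of the 40 non-Tg reads. Like Trpm1 it could pass the count filter only through PS2APP libraries, so the call made without sample 9 or by DESeq2 supports nothing. Dcstamp, the osteoclast fusion gene, had 168 reads in PS2APP and 10 in non-Tg libraries, all 10 in sample 9. Calcr, the calcitonin receptor gene, had 92 reads in PS2APP and 1 in non-Tg libraries, but 85 of the 92 were in PS2APP sample 15. Ctsk, the osteoclast collagenase, had 79 reads in PS2APP and 58 in non-Tg libraries. Among the other osteoclast markers, Mmp9 had 38 reads in PS2APP and 36 in non-Tg libraries, Oscar had 21 and 18, and Ocstamp had 1 and 4. The osteoclast markers summed to between 1.91 and 20.7 CPM in PS2APP and between 0.818 and 11.4 CPM in non-Tg libraries, with overlap.

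Of 22 folliculin, Rag and mTORC1 genes 21 were tested and 0 were called, beside 1.18% of all genes, with 13 above 0 and a median of 0.05. Flcn, chosen on this contrast, is among the 13 and part of that median. Rraga and Rragd, both Rag GTPase genes, had log2 fold changes of 0.85 ± 0.23 (edgeR adjusted p = 0.0813) and 1.10 ± 0.36 (edgeR adjusted p = 0.181). Rraga averaged 65.8 ± 20.8 CPM in PS2APP and 36.7 ± 13.4 CPM in non-Tg libraries (SD, n = 9 and 6), and DESeq2 called it (adjusted p = 0.0188). Of 30 CLEAR lysosome and autophagy genes, all tested, 0 were called and 17 were above 0, beside 1.18% and 47.3% of all genes, with a median of 0.09. Atp6v0d2, which passed the count filter only through PS2APP libraries, is in this list and in the osteoclast list. It counts among the genes above 0 in both. Cd63, a tetraspanin gene of lysosomes and melanosomes, averaged 167 ± 71.1 CPM in PS2APP and 85.6 ± 23.3 CPM in non-Tg libraries (SD, n = 9 and 6). Its log2 fold change was 0.93 ± 0.23 (edgeR adjusted p = 0.0534), and DESeq2 called it (adjusted p = 0.00534), while with the neuron score it was 0.56 ± 0.38 (edgeR adjusted p = 0.9999). Ctsb and Ctsd, lysosomal protease genes, had 0.67 ± 0.21 and 0.58 ± 0.21.

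**Figure D5:**
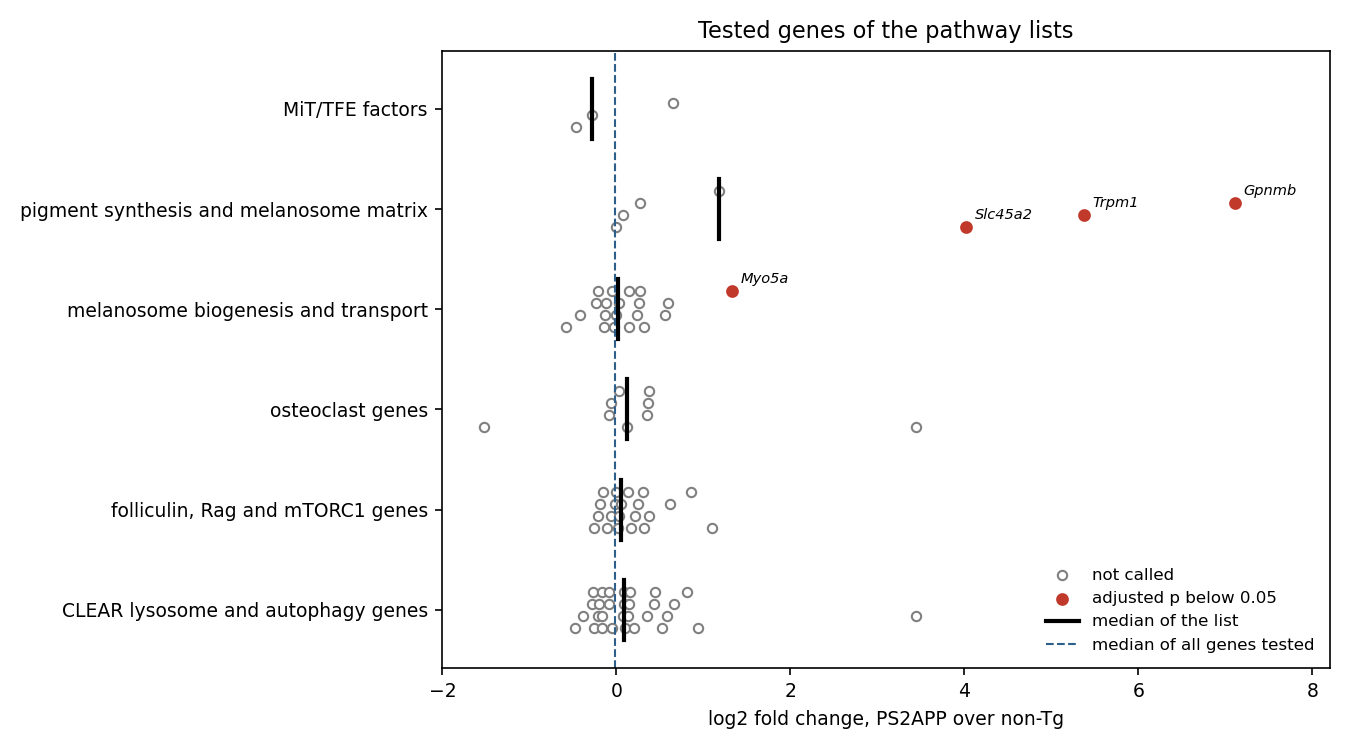
Log2 fold change of PS2APP over non-Tg for each tested gene of 6 pathway lists, with filled points for calls, black bars for list medians and a dashed line for the median of all genes tested (-0.02). Gpnmb, Trpm1, Slc45a2 and Myo5a are the called points. The bar of the pigment list is the value of Slc24a5, and that of the MiT/TFE list (-0.28) is the value of Tfe3. Both genes were chosen on this contrast, as was every tested gene of the MiT/TFE list. The other lists have medians between 0.01 and 0.12.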

How the data were processed

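The submitters' processing notes name the aligner GSNAP and the build GRCm38, and no annotation, library kit or strand setting is stated in the labels. Each sample has a table of gene counts (uniquely aligned reads) and of RPKM scaled by a size factor per sample, per the file headers. All edgeR and DESeq2 fits used the deposited counts, and the authors' RPKM served for levels per gene length and 1 alternative. Symbols came from RefSeq GRCm38.p6 and matched 31049 of 36528 IDs, with 97.2 to 98.2% of reads. Exon overlaps came from GENCODE M21.

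Genotype and age were fitted with edgeR 4.0.16 in R 4.3.3: filterByExpr left 13994 genes, TMM scaled the libraries, and Benjamini-Hochberg adjusted p under 0.05 was a call. DESeq2 1.42.0, limma 3.58.1, filters, ages and left-out libraries were alternatives. The SE is the log2 fold change over the root of F. Correlations used exact permutations (SciPy 1.17.1, two-sided). Intervals cover counting error only. The edgeR fit was tested on simulated data.

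The genes, lists and the 4 libraries high in immediate early genes were chosen with earlier results of these data known. Genes named were the 10, label checks, up to 4 genes a list by smallest adjusted p, and the 5 nearest to Mitf and to Gpnmb; Myef2, marker genes named singly and library details were chosen after values were seen.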

Additional observations from a re-analysis of the deposited data

Results flagged for a closer look

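A gap test on the highest and lowest library of each genotype (Dixon's 95% critical value) was run on 20 groups and marked 3 libraries, where chance marks about 1 group in 20. Slc24a5 stood at 88.7 CPM in PS2APP sample 7, far above the other PS2APP libraries, and Myef2, whose exons overlap it, was also highest there. Myo5a stood at 31.5 CPM in non-Tg sample 11, below the other non-Tg libraries, while neuron markers summed to 459 CPM in that library. Acp5 stood at 1.39 CPM in non-Tg sample 5, on 8 reads in all 6 non-Tg libraries. What lies behind these values was not tested.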

How the results depend on the processing

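No paired analysis was possible because the sample numbers are not shared between PS2APP and non-Tg. The 165 genotype calls became 648 with no filter, 390 with DESeq2, 16 with a neuron score, 50 at 14 months alone and 65 at 15 months alone, and ranged between 118 and 188 when 1 library was left out. Age gave 0 calls, against 103 with no filter, 12 with DESeq2 and 1 when PS2APP samples 1 and 4 and non-Tg samples 9 and 13, high in immediate early genes, were left out. The interaction gave 0 calls, against 94 with no filter and 6 with DESeq2, and between 0 and 3 with 1 library left out (3 without non-Tg sample 5, 1 without non-Tg sample 11). The cause was not tested. The 1 relation called with Mitf became 0 without PS2APP samples 1 and 4.

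Gpnmb was called in every fit, and Myo5a in every fit but those with the neuron score and at 14 months alone. Slc45a2 was called in 4 of the 9 leave-one-out fits it entered; the count filter dropped it without PS2APP samples 3, 7, 8, 10, 14 or 15. Signs turned for Tfeb by genotype (0.0069 with the neuron score, 0.23 at 14 months), with each value within its SE of 0. Nothing is read from the neuron score fit. Signs also turned for Tfe3 by genotype (0.41 at 14 months), and for the relations of Mitf with Tfeb (0.39) and Tfe3 (0.41). With 1 library left out, values near 0 crossed it: Myo5a by age lay between -0.070 and 0.068, and the interaction lay between -1.87 and 0.56 for Gpnmb, between -0.18 and 0.19 for Myo5a and between -0.12 and 0.13 for Flcn, which was -0.11 without the 4 libraries. Reads for Tfec, Acp5, Slc45a2 and Trpm1 were few, which limits their folds.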
